A study of Oryza sativa with 16 samples.

Results

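Open chromatin of rice seedlings was compared between 12 h of cold and the untreated control through 2 lists of FAIRE-seq peaks, which together held 209528 of the 695463 peaks of the series. A cold 12 h peak and a control peak were taken as matched when they shared at least 1 bp. Cold 12 h peaks without a match are called gained, control peaks without a match are called lost, and both words describe the lists only. Where 1 cold 12 h peak and 1 control peak overlapped each other and no further peak, the pair was called widened if the cold 12 h peak was at least 1.5 times as wide as the control peak, and narrowed if the control peak was at least 1.5 times as wide as the cold 12 h peak. The tested seedlings were Nipponbare, a Japonica cultivar, 14 days old and kept at 4 °C for 12 h. The control was seedlings of the same cultivar and age that stayed at 28 °C. Both were raised in a growth chamber under 16 h of light and 8 h of darkness. Each condition had 2 FAIRE-seq replicates, but a single peak list was deposited for both of them. No difference between the lists therefore has a replicate error or a p-value. The hour of the day at which the control was sampled is not given in the labels, and there is no control kept at 28 °C for a further 12 h. The other 5 conditions were cold 24 h (4 °C), heat 30 min and heat 3 h (42 °C), and salt 2 h and salt 6 h (250 mM NaCl). They used seedlings of the same cultivar and age.

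FAIRE-seq starts from seedlings fixed with formaldehyde. Their chromatin is broken into fragments, and those that carry little protein are recovered by phenol extraction and sequenced. Such DNA comes largely from stretches where nucleosomes have been displaced, as they are at active promoters and enhancers. Rice is a plant of warm climates and is sensitive to chilling. Low temperature is known to change the expression of many of its genes through transcription factors such as those of the DREB1/CBF family, which bind regulatory DNA near their targets. A peak is a stretch where MACS2 found more reads than in its surroundings, and the fold enrichment of a peak is the ratio of reads to that local background. The labels name seedlings as the source, so the reads average over the cell types that these hold. More cells with an open site and a more open site in each cell cannot be told apart.

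The cold 12 h list held 110010 peaks and the control list 99518. Of the cold 12 h peaks, 19242 (17.5%) were gained, with a 95% Wilson interval from 17.3% to 17.7%, and of the control peaks 7694 (7.73%) were lost, with an interval from 7.57% to 7.90%. Gained peaks outnumbered lost peaks by 11548, in the longer of the lists. With the cold 12 h list shortened to the 99518 peaks of highest fold enrichment, as many as the control had, 14067 peaks were gained and 12460 lost, a difference of 1607. These intervals, like those given below, cover counting error only. The remaining 90768 cold 12 h peaks met 91824 control peaks. Most of them, 81230, formed 1-to-1 pairs, which took in 73.8% of the cold 12 h list and 81.6% of the control list. In 3627 places a cold 12 h peak spanned 2 to 4 control peaks, and in 2651 places a control peak was divided into 2 or 3 cold 12 h peaks. By definition, gained minus lost peaks is the difference in list length plus matched control peaks minus matched cold 12 h peaks. The difference of 11548 holds both parts, and that of 1607, from lists of equal length, only the second. In those lists a cold 12 h peak spanned several control peaks in 3565 places, and a control peak was divided in 2067.

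The cold 12 h peaks covered 96.2 Mb and the control peaks 82.8 Mb, a difference of 13.5 Mb. The lists had 72.2 Mb in common. Bases covered only after cold 12 h lay in gained peaks for 8.64 Mb and beside or between matched peaks for 15.4 Mb. Bases covered only in the control lay in lost peaks for 2.64 Mb and beside or between matched peaks for 7.90 Mb. Gained peaks therefore held 36.0% of the bases that were covered after cold 12 h alone. In both directions the larger part of the exchanged bases was at peaks that both lists had. The balance was positive on each of the 12 chromosomes, from 14.9% more covered bases on chromosome 5 to 19.4% more on chromosome 12. All chromosomes were read from the same libraries, which makes them no independent repeats of each other.

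The fold enrichment of the cold 12 h peaks was lower than that of their control partners. Over the 81230 pairs, the median fold enrichment was 2.02 after cold 12 h and 2.45 in the control, and the median ratio within a pair was 0.833. It was under 1 in 91.3% of the pairs, and at or under 0.75 in 24.5% of them. The −log10 q, MACS2's measure of significance, was lower after cold 12 h in 54.8% of the pairs, with a median ratio of 0.953. At the same fold enrichment, cold 12 h peaks had the higher significance. Among peaks with a fold enrichment from 2.0 to 2.1, the median −log10 p was 8.21 for 9502 cold 12 h peaks and 5.39 for 7261 control peaks. Between 3.0 and 3.1, it was 19.6 for 881 cold 12 h peaks and 12.7 for 3003 control peaks. The −log10 p at a given fold enrichment depends on the number of reads, a number that the lists do not hold. In all bins of fold enrichment compared, the cold 12 h list had the highest median −log10 p of the 7 lists. The part of this difference in the number of gained and lost peaks was not tested.

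**Figure D1:**
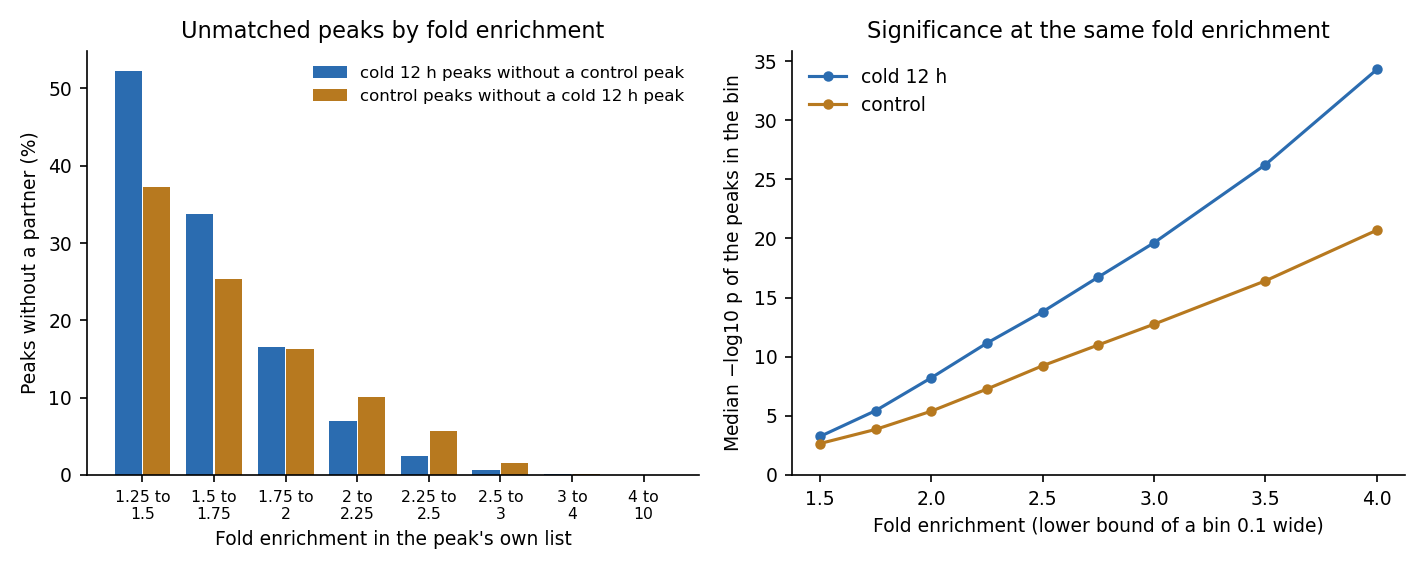
Left, share of peaks without a partner in bins of fold enrichment, for cold 12 h peaks (blue bars) and control peaks (brown bars). Right, median −log10 p of the peaks in bins of fold enrichment 0.1 wide, for both lists. The unmatched share was highest among peaks under 1.5, with 52.3% of those cold 12 h peaks and 37.3% of those control peaks, and at each fold enrichment the cold 12 h peaks had the higher −log10 p.

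Gained peaks were narrow and low. Their widths had a median of 348 bp and those of the other cold 12 h peaks a median of 780 bp, and their median fold enrichment was 1.66, against 2.00. The gained share was 52.3% among cold 12 h peaks with a fold enrichment under 1.5, and 0.0597% among those from 3.0 to 4.0. No peak of at least 4 was gained (0 of 182, which allows a share of up to 1.65%). For control peaks, the lost share was 37.3% under 1.5 and 0.169% from 3.0 to 4.0, with 0 of 2487 at 4 or more, which allows up to 0.121%. In the bin that ended at 2.0 the gained and lost shares were close, with 16.6% and 16.3%, and from 2.0 up the lost share was the larger in every bin that held an unmatched peak. The direction of the balance accordingly depended on how weak peaks were set aside. With a fold enrichment of at least 2, a limit chosen after the data were seen, 1824 gained peaks stood against 3162 lost peaks. This limit kept 47410 cold 12 h peaks and 76476 control peaks, so that the shares were close, 3.85% gained and 4.13% lost. With equal numbers of the strongest peaks counted, each still matched against the whole other list, gained peaks were again the more numerous. There were 2108 gained and 755 lost among the 50000 of highest fold enrichment in each list, and 174 gained and 31 lost among the 20000 of highest. The whole lists held 110010 cold 12 h and 99518 control peaks, so the partner lists were not of equal length. When −log10 q had to reach 5, 2789 gained peaks stood against 1450 lost peaks. The numbers of strongest peaks and the limit on −log10 q were also chosen after the data were seen. Peaks were also gained less often the wider they were, from 44.9% of the cold 12 h peaks under 300 bp to 0.615% of those of 2000 bp or more. The lost share over the same widths ran from 26.1% to 0.0168% of the control peaks.

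Gained peaks lay among the control peaks, whose own gaps had a median of 1764 bp. The nearest control peak was at a median distance of 1071 bp, and closer than 1000 bp for 46.3% of the gained peaks. Only 489 of them (2.54%) were 5000 bp or more from any control peak. The closest touched a control peak without sharing a base. Lost peaks, set among cold 12 h peaks with a median gap of 1484 bp, had a median distance of 953 bp to the nearest cold 12 h peak, and 459 of them (5.97%) were at least 5000 bp away. Gained peaks also had gained neighbours more often than the list as a whole, since the next cold 12 h peak was gained after 23.0% of them, against 17.5% in the list. The same was seen for lost peaks, where the next control peak was lost after 11.5%, against 7.73% in the list.

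The gained peak of highest fold enrichment was at chr5:4767927-4768311 on IRGSP 1.0, 385 bp wide, with a fold enrichment of 3.12 and a −log10 q of 17.7. The nearest control peak was 2537 bp away. At the same place the fold enrichment was 2.84 after cold 24 h, 3.02 after heat 30 min and 2.21 after heat 3 h, and neither salt list had a peak. The second was at chr4:35209500-35209825, with a fold enrichment of 3.11 and a control peak 774 bp away. It had a peak in the same 3 other lists. The fifth, at chr9:3829924-3830219, had the highest −log10 q of all gained peaks, 19.0, at a fold enrichment of 2.89, and was 2.94 after cold 24 h. The ninth, at chr4:5903384-5903705, was the most distant of the 10, at 8452 bp from the nearest control peak. The 10 gained peaks of highest fold enrichment were between 293 and 505 bp wide, with fold enrichments from 2.80 to 3.12, and lay on chromosomes 1, 3, 4, 5, 9 and 11. Of these 10, 9 overlapped a peak both of cold 24 h and of heat 30 min, 9 a peak of heat 3 h, 1 a peak of salt 2 h and none a peak of salt 6 h.

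Lost peaks were narrower still. Their widths had a median of 261 bp, and those of the other control peaks a median of 693 bp. Their median fold enrichment was 1.93, against 2.43. The strongest of them reached a higher fold enrichment than any gained peak, in a list whose fold enrichments were the higher ones in most pairs. At chr2:9611029-9611295, 267 bp wide, the control had a fold enrichment of 3.51 and a −log10 q of 15.9, and the nearest cold 12 h peak was 517 bp away. All other lists had a peak there, with a fold enrichment of 3.07 after cold 24 h, 3.06 after heat 30 min, 3.01 after heat 3 h, 2.99 after salt 2 h and 3.55 after salt 6 h. The same held for the lost peak of highest −log10 q (19.9), at chr5:22906730-22906984, with a fold enrichment of 3.42 in the control and of 3.37 after cold 24 h. It also held at chr6:31089309-31089642, where the fold enrichment was 3.48 in the control but 2.27 after cold 24 h and 1.87 after heat 3 h. The lost peak at chr8:3465551-3465796 differed from these, with a fold enrichment of 3.24 in the control and a peak in the heat 30 min list alone. The 10 lost peaks of highest fold enrichment were between 246 and 334 bp wide and had fold enrichments from 3.20 to 3.51. They lay on chromosomes 1, 2, 3, 5, 6, 8 and 12, and 5 of them had a peak in all 5 of the other stress lists.

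Matched peaks kept their width in most places, and the change was in the tails. The median width of the paired peaks was 758 bp after cold 12 h and 682 bp in the control, but the median width ratio of a pair was 1.02, and 64166 pairs (79.0%) were within 1.5 times of each other. Of the 81230 pairs, 12270 (15.1%) were widened, with a Wilson interval from 14.9% to 15.4%, and 4794 (5.90%) were narrowed, with an interval from 5.74% to 6.07%. There were 2.56 widened pairs for each narrowed pair. The pairs on either side of the limit had ratios of 1.5 and 1.49956, and 3827 pairs had ratios from 1.4 to 1.6, so the limit cuts through a continuous range. Widened pairs had a median width of 944 bp after cold 12 h and 381 bp in the control. For narrowed pairs these widths were 355 bp and 799 bp. In a widened pair the cold 12 h peak reached beyond the control peak at both edges in 58.9% of the cases, yet most of the growth was on a single side, since the side that grew more held a median of 97.7% of the added bases. Widening went with a lower fold enrichment. The median ratio of fold enrichment, cold 12 h over control, was 0.791 in widened pairs, 0.876 in narrowed pairs and 0.836 in the rest. The fold enrichment is a mean over the whole peak, so a change of width also changes the bases it is taken over. The part of this in the ratios was not tested.

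**Figure D2:**
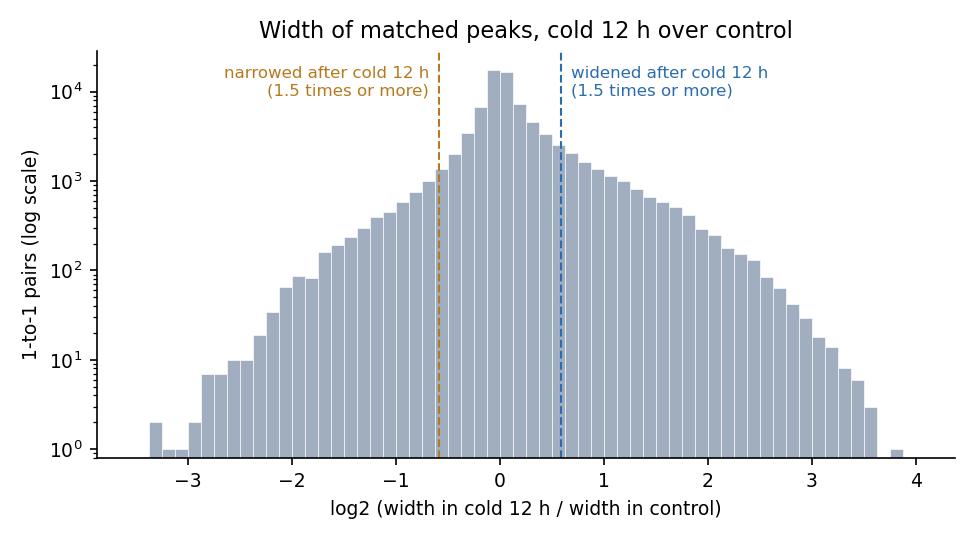
Number of 1-to-1 pairs (log scale) by the log2 ratio of the peak's width in cold 12 h over its width in the control. The dashed lines mark 1.5 times in either direction, and 12270 pairs lie beyond the right line against 4794 beyond the left one.

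The 5 pairs that widened most, among those that reached 2 on the −log10 q scale in both lists, had cold 12 h peaks from 2416 to 3037 bp wide over control peaks from 208 to 243 bp. The first lay at chr7:14724175-14727211 after cold 12 h and at chr7:14726094-14726301 in the control, a ratio of 14.6. Its fold enrichment was 1.56 after cold 12 h and 1.95 in the control, and its width was 228 bp after cold 24 h and 683 bp after heat 30 min. The second was 2860 bp wide after cold 12 h, at chr2:19911906-19914765, and 238 bp in the control, with 246 bp after cold 24 h. In these 5 places no other list had a peak of over 1219 bp. The pair that narrowed most was 207 bp wide after cold 12 h, at chr10:22949381-22949587, and 2082 bp in the control, at chr10:22949362-22951443, and had widths of 373 bp after cold 24 h and 701 bp after heat 30 min. The third, at chr6:19654271-19654477, was 207 bp wide after cold 12 h and 1662 bp in the control, but here the other lists had widths from 201 to 247 bp and the control was the list that stood apart. All 10 of these pairs had fold enrichments between 1.48 and 1.94 after cold 12 h, under the median of 2.02 over all pairs. In the control they lay between 1.58 and 2.56. There only the fourth widened pair, with 2.56, was above the median of 2.45 over all pairs.

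The changes were spread over all chromosomes. The gained share ran from 16.0% on chromosome 4 (interval 15.3% to 16.8%) to 19.5% on chromosome 12 (18.6% to 20.5%), and was 18.8% on chromosome 11. The lost share ran from 6.58% on chromosome 3 (6.13% to 7.06%) to 9.02% on chromosome 12 (8.34% to 9.76%). Chromosome 12 thus held the highest share of both. It also had the highest share of widened pairs, 16.6%, and of narrowed pairs, 6.40%, but by little. Chromosome 11 had 16.5% widened pairs and chromosome 4 had 6.39% narrowed pairs. The lowest widened share was 13.6% on chromosome 3 and the lowest narrowed share 5.28% on chromosome 1. There were between 2.15 gained peaks for each lost peak, on chromosome 4, and 2.88, on chromosome 1. The median ratio of fold enrichment in the pairs lay between 0.825 and 0.843 on all chromosomes.

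**Figure D3:**
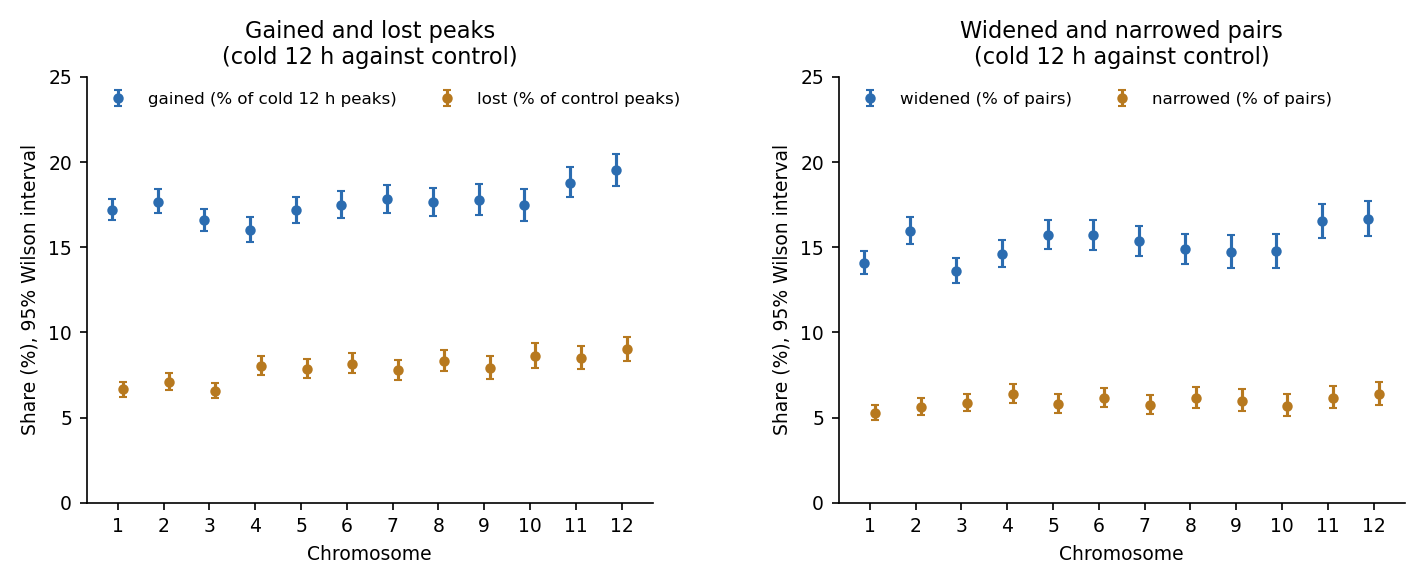
Share of gained cold 12 h peaks and of lost control peaks (left) and of widened and narrowed pairs (right) on each of the 12 chromosomes, with 95% Wilson intervals for counting error. Gained shares lie between 16.0% and 19.5% and lost shares between 6.58% and 9.02%, and both are highest on chromosome 12.

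Along the chromosomes, 379 windows of 1 Mb were compared, with each peak counted where its midpoint lay. In 367 of them there were more gained than lost peaks, in 2 the numbers were equal and in 10 there were more lost peaks. Widened pairs outnumbered narrowed pairs in 374 windows, and 377 windows had more covered bases after cold 12 h. The number of windows with more gained than lost peaks depended on the peaks counted, as the total did. It was 233 with equal numbers of peaks in both lists, 310 and 125 when the counts were kept to the strongest 50000 and 20000 peaks per list by fold enrichment, and 296 with the limit of 5 on −log10 q. With a fold enrichment of at least 2, which kept 47410 cold 12 h peaks and 76476 control peaks, it was 69. The strongest 20000 peaks per list held only 174 gained and 31 lost peaks. At that setting at most 31 of the 379 windows can have had more lost peaks. The other windows without more gained peaks had equal numbers or none. Among the 378 windows with at least 20 peaks of both lists, the median number was 51 gained and 20 lost peaks. The gained share had a median of 17.3% and lay between 15.1% and 19.9% in the middle 50% of the windows. The lost share had a median of 7.46% and lay between 6.08% and 9.41%. The shares hardly moved together across these windows, with a Spearman rho of -0.08. The windows share their libraries, and rho is given as a description.

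**Figure D4:**
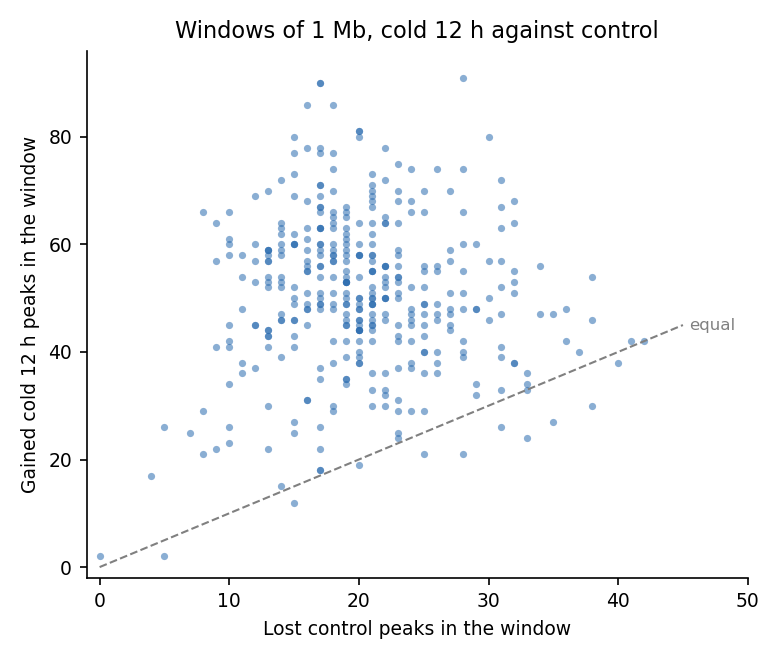
Gained cold 12 h peaks (vertical axis) against lost control peaks (horizontal axis) in each of the 379 windows of 1 Mb. Each point is a window and the dashed line marks equal numbers, with 367 windows above it and 10 below it.

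Shares were ranked among windows with at least 20 peaks. The highest gained share was in the window at chr12:19000001-20000000, where 86 of 273 cold 12 h peaks (31.5%) were gained and 16 of 201 control peaks (7.96%) were lost. Of the 10 windows with the highest gained share, 4 were on chromosome 12. At chr12:24000001-25000000, 91 of 357 cold 12 h peaks were gained, the highest number of any window, and 50 of 246 pairs were widened. The largest relative gain of covered bases was at chr7:27000001-28000000, with 188 kb after cold 12 h and 136 kb in the control, a difference of 37.9%. There 38 of 160 pairs were widened and 6 narrowed. The highest lost share was at chr8:7000001-8000000, where 40 of 232 control peaks (17.2%) were lost and 38 of 226 cold 12 h peaks (16.8%) were gained. On chromosome 5, the neighbouring windows from 10000001 to 12000000 both had more lost than gained peaks, with 30 gained and 38 lost in the first and 27 gained and 35 lost in the second. The first of them was also 1 of only 2 windows with fewer covered bases after cold 12 h, with 181 kb against 182 kb in the control. The other was chr11:12000001-13000000, with 114 kb against 115 kb. The window at chr9:1-1000000 was among the 10 highest in both directions, since 57 of its 220 cold 12 h peaks (25.9%) were gained and 30 of its 194 control peaks (15.5%) were lost.

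Lost peaks were more frequent where the control had few peaks. In the fifth of the windows with the fewest control peaks (61 to 226 per window), 9.79% of the control peaks were lost, and in the fifth with the most (302 to 354) 6.97%. The gained share differed less, with 18.7% and 16.5%. The Spearman rho with the number of control peaks was -0.37 for the lost share and -0.19 for the gained share over the 378 windows. The number of control peaks is also the denominator of the lost share. Towards the ends of the chromosomes, taken as base 1 and the end of the last peak, the balance moved further to gained peaks. Between 3 and 5 Mb from an end, 18.4% of the cold 12 h peaks were gained (17.8% to 19.0%) and 6.56% of the control peaks were lost, 3.17 gained for each lost peak. At 12 Mb or more from both ends, these shares were 16.8% (16.3% to 17.2%) and 8.63%, 2.12 gained for each lost peak. In the outermost 1 Mb the shares were 19.0% and 7.46%, with 2.86 gained for each lost peak, so the balance was not highest at the very ends. Widened pairs followed the gained peaks, with 17.0% of the pairs in the outermost 1 Mb and 14.3% at 12 Mb or more, while narrowed pairs made up 5.70% and 6.86%.

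The same peaks were looked up in the 5 stress lists that the matching had not used. Of the gained peaks, 26.6% overlapped a peak of cold 24 h, 57.0% a peak of heat 30 min, 17.2% of heat 3 h, 9.75% of salt 2 h and 4.03% of salt 6 h. The other cold 12 h peaks were found in these lists at between 85.3% (salt 6 h) and 98.9% (heat 30 min). In none of the 5 lists were 7443 of the gained peaks (38.7%) present, and in all of them 363 (1.89%). Among the 1824 gained peaks with a fold enrichment of at least 2, the share was 42.6% for cold 24 h and 80.6% for heat 30 min, but 2.03% for salt 6 h. Lost peaks were present at 58.9% in cold 24 h, 30.8% in heat 3 h, 65.0% in salt 2 h and 53.3% in salt 6 h, each above the gained peaks' share, but at 53.6% in heat 30 min, where the gained peaks' share was the higher one. Of the lost peaks, 1033 (13.4%) were in no other list. The other control peaks were found at between 84.3% (salt 6 h) and 98.8% (heat 30 min). Gained peaks were picked for their absence from the control, the lists differ in length from 87437 to 110010 peaks, and these shares are therefore descriptions.

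**Figure D5:**
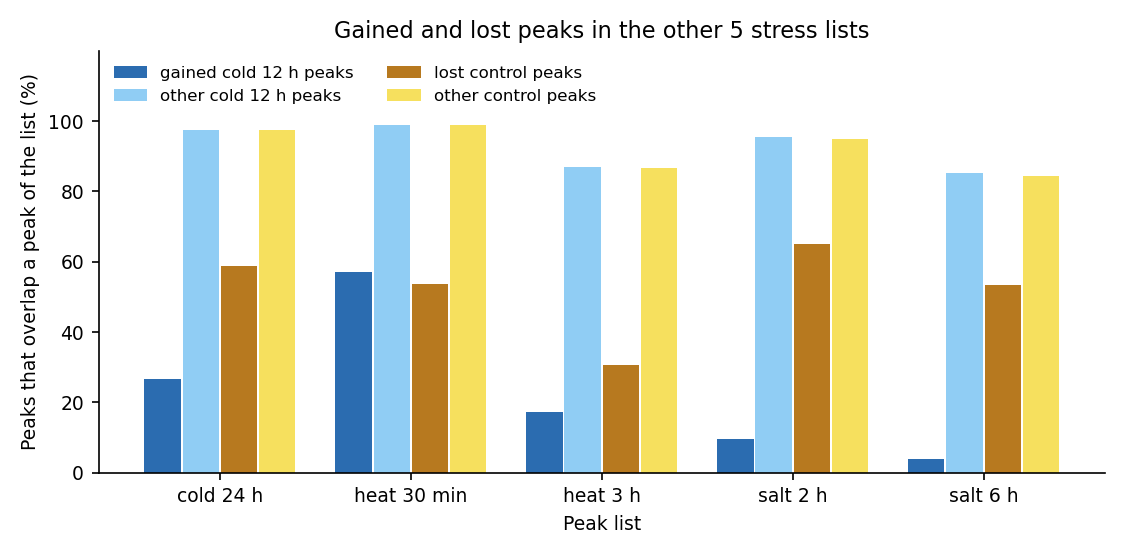
Share of the gained and the other cold 12 h peaks (dark and light blue) and of the lost and the other control peaks (brown and yellow) that overlap a peak of each of the other 5 stress lists by at least 1 bp. Gained peaks range from 4.03% in salt 6 h to 57.0% in heat 30 min, and lost peaks from 30.8% in heat 3 h to 65.0% in salt 2 h.

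The widths of matched peaks were compared in the same way, over pairs with a 1-to-1 partner in every list. In 6301 widened pairs the median width was 1117 bp after cold 12 h, 664 bp after cold 24 h, 844 bp after heat 30 min, 583 bp after heat 3 h, 567 bp after salt 2 h, 459 bp after salt 6 h and 529 bp in the control. Cold 24 h was thus nearer to the control than to cold 12 h at these places. In 2750 narrowed pairs, the median width was 391 bp after cold 12 h, 686 bp after cold 24 h, 663 bp after heat 30 min, 517.5 bp after heat 3 h, 731 bp after salt 2 h, 641.5 bp after salt 6 h and 820.5 bp in the control. Here heat 3 h was nearer to cold 12 h than to the control. These pairs were picked for their widths in the cold 12 h and control lists. The pairs within 1.5 times had median widths of 821 bp after cold 12 h, 816 bp after cold 24 h and 811 bp in the control. In the same pairs they were 853 bp after heat 30 min, 728 bp after heat 3 h, 804 bp after salt 2 h and 728 bp after salt 6 h. The medians of heat 3 h and salt 6 h were thus the lowest in these pairs. In the narrowed pairs, picked for wide control peaks, every other list had a lower median width than the control.

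Against the same control list, the other stress lists gave other balances. Gained and lost peaks numbered 8358 and 5496 for cold 24 h, a list of 102210 peaks. They numbered 15440 and 4652 for heat 30 min, a list of 108147 peaks. Widened and narrowed pairs numbered 5306 and 3214 of 87384 (6.07% and 3.68%) for cold 24 h. For heat 30 min they numbered 10028 and 2637 of 85430 (11.7% and 3.09%). In heat 3 h and both salt lists, lost peaks outnumbered gained peaks and narrowed pairs outnumbered widened pairs. These lists, with 91083, 97058 and 87437 peaks, were shorter than the control list of 99518 peaks. The cold 12 h, cold 24 h and heat 30 min lists were longer than it. By definition, the difference in list length is part of gained minus lost peaks. Of the 6 stress lists, cold 12 h was the longest, with 110010 peaks, and had the most gained peaks and the most widened pairs. It also had the lowest median ratio of fold enrichment in its pairs, 0.833, followed by heat 30 min with 0.919 and cold 24 h with 1.02. With a fold enrichment of at least 2, gained and lost peaks numbered 1824 and 3162 for cold 12 h, 3045 and 2258 for cold 24 h, and 4727 and 1824 for heat 30 min, a limit at which the lists keep unequal numbers of peaks. All these comparisons share the control list, and the differences between them were not tested.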

How the data were processed

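FAIRE-seq libraries of 14-day-old seedlings were analysed from the peak lists of cold 12 h and control, with the other 5 stress lists for comparison. Per the methods of the authors, Bowtie2 placed the reads on IRGSP 1.0, and duplicates, reads with a mapping score under 10 and reads at insertions of organelle DNA were dropped. They called broad peaks with MACS2 without a model, and removed peaks under 1 RPM in any replicate. Versions, and whether replicates were pooled before peaks were called, are not given in the sources used here. Per the file format, the deposited fold enrichment is a linear ratio over the local background. The deposited fold enrichment, like the deposited −log10 p and −log10 q, is a mean over the peak. Start positions were raised by 1 for printing. Peaks of a deposited list were at least 401 bp apart.

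Lists were matched by 1 bp of overlap, and peaks were counted per chromosome and per 1 Mb window by midpoint. Shares have 95% Wilson intervals. With 1 list per condition no test was run, the lists hold no read depth, and the mapped reads per library were not used here. Limits for a share of 0 are 3 counts over the total. The text names the 10 gained and 10 lost peaks of highest fold enrichment, the 5 most widened and 5 most narrowed pairs with −log10 q of at least 2 in both peaks, and the 10 windows with the highest gained and lost shares among those with at least 20 peaks, in part by their ranges. The windows with more lost peaks or fewer covered bases were chosen after their values were seen. Members, limits and lists were chosen with earlier results of these data known. Of the alternatives, 9 settings were planned and 5 were added after the data were seen. The matching was tested on 5000 simulated loci, and all 7 known quantities were recovered. Gene positions on IRGSP 1.0 were not used here, so no peak was assigned to a gene. RNA-seq was not analysed here. The work was done in Python 3.11.15, with matplotlib 3.10.9 for figures, scipy 1.17.1 and numpy 2.4.6.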

Additional observations from a re-analysis of the deposited data

How the results depend on the processing

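Counts were taken as changed when they moved by more than 1.5 times, and 57 of 88 comparisons of a result with an alternative stayed within that range. The differences of gained minus lost peaks and of widened minus narrowed pairs, a limit of 2 on fold enrichment or of 5 on −log10 q, counts among the strongest peaks of each list, and merging within 1000 bp were chosen after the data were seen. With a fold enrichment of at least 2 in the peak counted, there were 1824 gained and 3162 lost peaks, a difference of -1338 in place of 11548, and 69 windows with more gained than lost peaks, while 47410 cold 12 h peaks and 76476 control peaks reached this limit. Among the strongest 50000 peaks per list by fold enrichment there were 2108 gained and 755 lost peaks, a difference of 1353. Among the strongest 20000 there were 174 and 31, a difference of 143, and 125 windows with more gained than lost peaks. When −log10 q had to reach 5 there were 2789 gained and 1450 lost peaks, a difference of 1339. These settings leave fewer peaks to count by construction, and each peak counted was still matched against the whole other list. When the cold 12 h list was shortened by fold enrichment to the 99518 peaks of the control, 12460 peaks were lost, the difference shrank to 1607 and 233 windows had more gained than lost peaks. By construction, the difference in list length is no longer part of that of 1607. Merging within 1000 bp left 8282 gained and 3884 lost peaks, a difference of 4398. Merging within 200 bp changed nothing, since no gap was that short, so its comparisons are among the 57 by construction. When 50% of a peak had to be covered, 6137 pairs were widened and 3181 narrowed, a difference of 2956, and joined and divided places numbered 0, because such an overlap allows a ratio of at most 2 and a single partner. With only peaks of at least 300 bp, 2316 places were joined. A width ratio of at least 5 to 4 gave 19151 widened and 8984 narrowed pairs, and a ratio of 2 gave 6409 and 2074, a difference of 4335. Widened pairs outnumbered narrowed pairs in every setting in which both were counted. The limits of 2 on fold enrichment and of 5 on −log10 q, and the counts among the strongest peaks, were not applied to the pairs. No paired analysis was possible because each condition has a single list for both replicates, and no replicate could be left out.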

Other observations

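Gained peaks formed short runs. Of the 19242 gained peaks, 2934 (15.2%) stood in runs of at least 3 gained peaks that followed each other in the cold 12 h list, against 372 of the 7694 lost peaks (4.83%) in such runs of the control list. The cold 12 h list was also the longer one and had the larger unmatched share. The longest run was at chr1:16365777-16388205, where 12 gained peaks followed each other over 22.4 kb without a control peak between them. Their fold enrichments lay between 1.47 and 1.97, and 2 of the 12 overlapped a peak of cold 24 h, 3 a peak of heat 30 min and none a peak of the other 3 lists. A run of 9 at chr10:22339372-22356222 had 7 peaks that overlapped a heat 30 min peak, 4 that overlapped a heat 3 h peak and none that overlapped a cold 24 h peak. A further run of 9 was at chr5:3132883-3146776, with fold enrichments up to 2.14. The longest run of lost peaks, 6 over 21.7 kb at chr10:9445871-9467600, had fold enrichments from 1.64 to 2.70 in the control. All 6 of them overlapped a salt 2 h peak and 4 a cold 24 h peak. These runs were chosen after their values were seen.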
